A study of Mus musculus with 14 samples.

Results

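The 9 genes described here encode partners and inhibitors of MyoD: the myocyte enhancer factors Mef2a, Mef2c and Mef2d, the E-proteins Tcf3, Tcf4 and Tcf12, and the inhibitors Id1, Id2 and Id3. A peak was counted for a gene when the annotation made by the authors gave that gene as the nearest one. This held for 388 of 517058 peaks in 10 lists. The lists come from chromatin immunoprecipitation followed by sequencing (ChIP-seq), which reads where a protein sits on DNA, in C2C12, a line of mouse myoblasts that fuse into myotubes when serum is lowered. Of 14 samples, 4 were input DNA or IgG, and the other 10 were libraries of 4 antibodies: TDP-43 (which binds DNA and RNA), MyoD, Myogenin and Pol II S2P, the RNA polymerase II form with phosphate on serine 2 of the tail. The 6 control lists comprise 3 TDP-43 libraries and 1 each of MyoD, Myogenin and Pol II S2P, all on day 2 of differentiation. The 4 siMyolinc lists comprise 1 library per antibody, also on day 2, from cells transfected with a small interfering RNA at 10 nM against the long noncoding RNA Myolinc. The labels leave unsaid whether control cells were given a control siRNA, and whether the 3 TDP-43 control libraries came from separate cultures. Their spread may therefore be technical. The study asked whether TDP-43 sits at promoters of muscle genes and whether this needs Myolinc.

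MyoD and Myogenin are basic helix-loop-helix (bHLH) factors that activate muscle genes as dimers with an E-protein, on a short DNA word called the E-box. Mef2 proteins bind their own A/T-rich word and act beside those dimers at many muscle promoters and enhancers. Id proteins have the helix-loop-helix part without the basic DNA-binding part, so they hold E-proteins in dimers that cannot bind DNA and delay differentiation. Pol II S2P is the elongating form of the polymerase and is usually found along transcribed gene bodies. Peak lists hold no RNA measurement, so neither the depletion of Myolinc nor the muscle identity of the cells could be checked by expression.

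The lists differed far more in length than in the share they gave to these genes. The shortest list, TDP-43 control replicate 3, held 8162 peaks, and the longest, Pol II S2P siMyolinc, held 116064. Scores of peaks were set by the authors. Within a list they were whole multiples of a step, read here as the worth of 1 sequence tag, so scores are given as tags. By the size of these steps, the other libraries had 0.690 to 2.71 times the depth of TDP-43 control replicate 1, if all lists were scaled alike. The typical peak had a median of 6 to 24 tags in 9 lists and 137 in Myogenin siMyolinc. Peaks of the MyoD and Myogenin siMyolinc lists were 75 bp wide at the median, against 217 to 249 bp elsewhere. Length, depth, width or tags differed between control and siMyolinc lists for every antibody, and their part in any difference between conditions cannot be told apart from that of the knockdown.

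The Mef2, E-protein and Id genes took 4.73 to 9.80 of every 10000 peaks in each list. TDP-43 control replicates 1, 2 and 3 held 24, 5 and 8 peaks of these genes, and TDP-43 siMyolinc held 17. MyoD held 49 in control and 91 in siMyolinc. Myogenin went the other way, with 91 in control and 16 in siMyolinc. Pol II S2P held 6 in control and 81 in siMyolinc. Per 10000 peaks of its list the values were 8.08, 4.73 and 9.80 for the 3 TDP-43 controls and 6.81 for TDP-43 siMyolinc. They were 6.82 and 8.31 for MyoD control and siMyolinc, 7.91 and 7.82 for Myogenin, and 5.60 and 6.98 for Pol II S2P. The raw numbers followed the lengths of the lists, and the rates lay close together.

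At least 1 peak lay nearest to 7, 4 and 5 of the 9 genes in TDP-43 control replicates 1, 2 and 3, where 46.5%, 25.4% and 21.0% of 21900 protein-coding genes had one. In TDP-43 siMyolinc 7 of the 9 genes had a peak, against 42.5% of all genes. MyoD control marked 7 of the 9 and MyoD siMyolinc all 9, against 61.0% and 71.1% of all genes. Myogenin control marked all 9 and Myogenin siMyolinc 7, against 68.8% and 37.4%. Pol II S2P control marked 4 and Pol II S2P siMyolinc all 9, against 25.2% and 72.3%. Genes with wide surroundings collect more peaks by this rule, and Mef2c and Tcf4 alone held 218 of the 388 peaks.

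**Figure D1:**
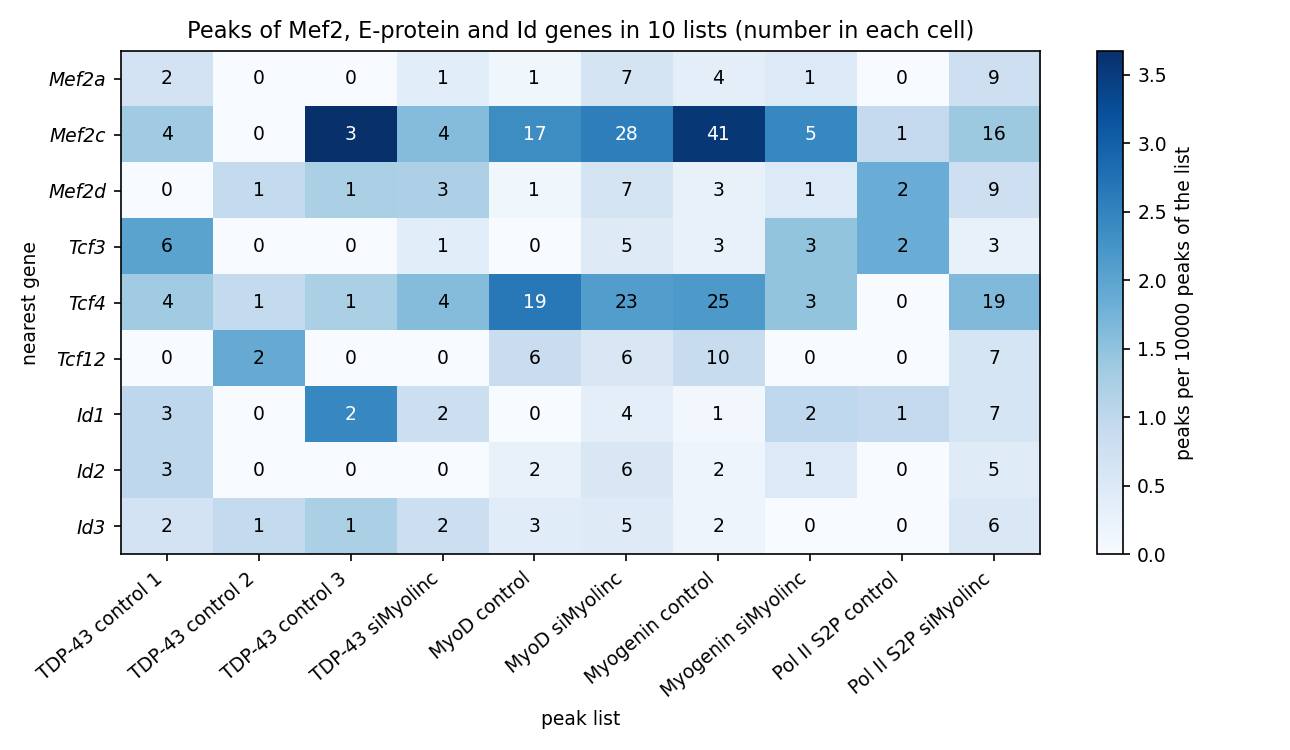
Number of peaks whose nearest gene is each of the 9 genes (rows) in each of the 10 lists (columns). The shade gives peaks per 10000 peaks of the list. Mef2c and Tcf4 hold 119 and 99 of the 388 peaks, and in the TDP-43 and Pol II S2P control lists no gene has more than 6.

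Most of these peaks lay far from the genes' starts. Of the 388, 241 (62.1%) were intergenic and 119 (30.7%) lay in an intron of the gene itself. A further 12 lay in exons or introns of a neighbour, 6 of them in Kidins220 beside Id2 and 6 in Iqgap3 beside Mef2d. The promoter class of the authors' annotation held 6 peaks (1.55%). Within 5 kb of the nearest transcription start lay 32 peaks (8.25%), against 13.5% of all peaks of the 10 lists. More than 100 kb away lay 161 (41.5%), all of them at Mef2a, Mef2c or Tcf4, against 29.1% of all peaks. Counted by antibody, 0 of 49 MyoD control peaks lay within 5 kb, as did 7 of 91 MyoD siMyolinc peaks, 4 of 91 Myogenin control peaks and 2 of 16 Myogenin siMyolinc peaks. The same was true of 6 of 37 TDP-43 control peaks, 2 of 17 TDP-43 siMyolinc peaks, 1 of 6 Pol II S2P control peaks and 10 of 81 Pol II S2P siMyolinc peaks. Over whole lists the share within 5 kb was 10.5% for MyoD control and 13.9% for MyoD siMyolinc, 9.97% and 15.7% for Myogenin, 21.6%, 24.4% and 24.8% for the TDP-43 controls, 14.8% for TDP-43 siMyolinc, and 20.9% and 13.1% for Pol II S2P.

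**Figure D2:**
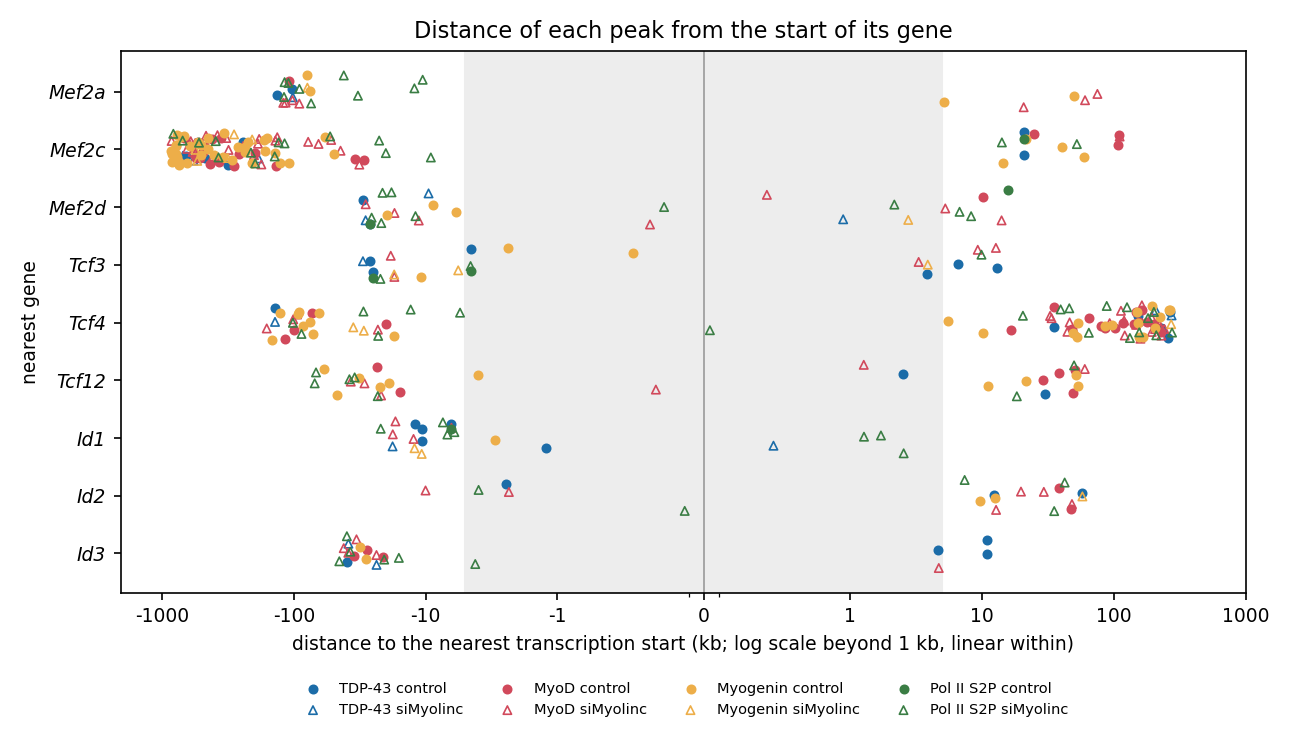
Signed distance of each of the 388 peaks from the nearest transcription start of its gene, in kb, negative upstream (log scale beyond 1 kb, linear within; the grey band spans 5 kb on each side). Filled circles are control peaks and open triangles siMyolinc peaks, coloured by antibody. Mef2c peaks sit mostly far upstream, Tcf4 peaks mostly inside the gene, and 32 peaks fall in the grey band.

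No TDP-43 list, in control or after knockdown, had a promoter peak at any of the 9 genes. Over all protein-coding genes the share with a promoter peak was 4.83%, 2.00% and 1.58% in TDP-43 control replicates 1, 2 and 3 and 2.34% in TDP-43 siMyolinc. MyoD control had none (3.79% of all genes), and MyoD siMyolinc had 2, at Mef2d and Tcf12 (10.6%). Myogenin control had 1, at Tcf3 (6.16%), and Myogenin siMyolinc none (2.31%). Pol II S2P control had none (1.45%). Pol II S2P siMyolinc had 3, at Id2, Mef2d and Tcf4 (8.39%). Counts this small sit beside backgrounds of a few percent, and every one rests on a single library.

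The promoter peaks had fewer tags than the median peak of their list, save that of Tcf12. These medians were 24 in MyoD siMyolinc, 11 in Pol II S2P siMyolinc and 15 in Myogenin control. The Tcf12 peak in MyoD siMyolinc (chr9:72112110-72112184, 328 bp upstream of the start) had 34 tags (95% Poisson interval 23.5 to 47.5) and stood 21038th of 109541 by score. The Mef2d peak in the same list (chr3:88141990-88142064, 368 bp upstream) had 22 tags (13.8 to 33.3) and stood 58831st. The Mef2d peak of Pol II S2P siMyolinc (chr3:88142014-88142232, 272 bp upstream) had 8 tags (3.45 to 15.8) and stood 89643rd of 116064. It overlapped the MyoD siMyolinc peak, which makes Mef2d the 1 gene of the 9 with a promoter peak in more than 1 list. The Id2 peak of Pol II S2P siMyolinc (chr12:25096114-25096332, 131 bp upstream) had 10 tags (4.80 to 18.4), and the Tcf3 peak of Myogenin control (chr10:80434028-80434246, 484 bp upstream) had 9 (4.12 to 17.1).

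The promoters of Id2, Mef2d and Tcf12 are printed because a siMyolinc promoter peak lay in or beside each of them. They are RefSeq sequences of GRCm38.p6, the assembly also called mm10, from 250 bases before to 50 bases after the annotated start, 5′ to 3′ on the strand of the gene. Capitals mark the E-box CANNTG. The Id2 window is chr12:25096043-25096342 on the minus strand, the Mef2d window chr3:88142122-88142421 on the plus strand, and the Tcf12 window chr9:72111770-72112069 on the minus strand.
Id2: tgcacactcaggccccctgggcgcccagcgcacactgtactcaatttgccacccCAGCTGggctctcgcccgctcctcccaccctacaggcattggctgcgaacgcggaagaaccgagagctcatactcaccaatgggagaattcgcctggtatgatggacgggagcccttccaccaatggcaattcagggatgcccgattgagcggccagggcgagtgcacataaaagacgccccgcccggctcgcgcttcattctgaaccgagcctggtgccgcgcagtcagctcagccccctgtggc
Mef2d: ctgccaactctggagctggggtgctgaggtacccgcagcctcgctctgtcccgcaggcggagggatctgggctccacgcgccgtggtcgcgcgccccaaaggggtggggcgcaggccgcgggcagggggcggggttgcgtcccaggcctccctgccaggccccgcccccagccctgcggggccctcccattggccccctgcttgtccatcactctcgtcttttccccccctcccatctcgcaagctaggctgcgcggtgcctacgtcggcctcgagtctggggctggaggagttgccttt
Tcf12: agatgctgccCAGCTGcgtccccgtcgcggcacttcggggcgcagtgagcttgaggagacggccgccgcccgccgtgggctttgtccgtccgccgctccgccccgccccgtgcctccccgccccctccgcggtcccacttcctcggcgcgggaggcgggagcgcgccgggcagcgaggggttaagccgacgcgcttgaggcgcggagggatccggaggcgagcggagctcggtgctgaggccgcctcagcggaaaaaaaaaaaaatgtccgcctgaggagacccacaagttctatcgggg

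In the Id2 window the E-box CAGCTG starts at position 55, and the Pol II S2P siMyolinc peak covered positions 11 to 229, the E-box included. In the Mef2d window there is no CANNTG; the Pol II S2P siMyolinc peak covered positions 1 to 111, and the MyoD siMyolinc peak ended 57 bases upstream of it. In the Tcf12 window CAGCTG starts at position 11, and the MyoD siMyolinc peak lay beyond the upstream edge, 40 bases away. Promoter windows were read for 7 of the genes, and not for Id1 or Tcf4. These 7 genes had 11 such windows, of which 7 held an E-box. The word reads alike on both strands, since the reverse complement of CANNTG is again CANNTG. Of 32851 RefSeq windows of this length, 72.3% held an E-box. The form CAGCTG was present in 2 of the 11 windows and in 16.3% of all, and CACCTG in none and in 20.2%. TGTGTG or its reverse complement, a stretch of the TG repeats that TDP-43 binds in RNA, was in 2 of the 11 and in 21.1% of all. A match is a word in the sequence and not a bound site.

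Among the Mef2 genes, peaks of Mef2c were many and remote, and those of Mef2a and Mef2d few, the latter close to the gene. Mef2c, which drives early muscle and heart development, had 119 peaks in 9 lists: 4, 0 and 3 in the TDP-43 controls, 4 in TDP-43 siMyolinc, 17 and 28 in MyoD control and siMyolinc, 41 and 5 in Myogenin, and 1 and 16 in Pol II S2P. Their median distance from a start was 316759 bp and 80.7% lay beyond 100 kb, 93 of them upstream and as far as 857469 bp. None lay within 5 kb. In that far upstream region Myogenin control had 35 peaks, MyoD siMyolinc 22 and MyoD control 12. Repeats were touched by 49 of the 119 Mef2c peaks. Its best-placed peak, meaning the best rank relative to the length of its list, was a Pol II S2P siMyolinc peak in an intron, 52307 bp downstream of a start, with 24 tags, 2452nd of 116064.

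Around the Mef2c gene body itself, with 10 kb on each side, density was unremarkable. The 95% interval of the ratio to the mean over all protein-coding genes included 1 in all 10 lists. That mean was pooled: peaks summed over all genes so extended, divided by their summed length. Long genes therefore weigh more in it. A Mef2c intron did hold 1 of the 4 positions found in 3 lists. At chr13:83524663-83524917, 20753 bp downstream of a start, TDP-43 control replicates 1 and 3 had peaks of 5 and 6 tags and Pol II S2P control one of 6 tags. No siMyolinc list had a peak there.

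Mef2a, a Mef2 factor with a role in late differentiation and regeneration, had 25 peaks, 20 upstream and 5 in its own introns, and none in the promoter class or within 5 kb. By place it held more: of 23 peaks in the body with 10 kb on each side, the annotation gave 16 to the neighbour Lysmd4, 9 of them in Mef2a introns. The counts were 2, 0 and 0 in the TDP-43 controls, 1 in TDP-43 siMyolinc, 1 and 7 in MyoD control and siMyolinc, 4 and 1 in Myogenin, and 0 and 9 in Pol II S2P. One site about 100 kb upstream carried the best-placed peak, in TDP-43 siMyolinc (chr7:67474555-67474771, 13 tags, 303rd of 24964). A TDP-43 control replicate 1 peak of 8 tags lay next to it without overlap, at a position it shared with a 20-tag MyoD siMyolinc peak (chr7:67475210-67475458). In the gene body with 10 kb around it, Pol II S2P siMyolinc had 3 peaks, 0.313 times the mean density of all genes (0.0645 to 0.914).

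Mef2d, whose muscle splice form drives late differentiation genes, had 28 peaks, the farthest 29701 bp upstream of a start. The TDP-43 controls had 0, 1 and 1 and TDP-43 siMyolinc 3. MyoD had 1 in control and 7 in siMyolinc, Myogenin 3 and 1, and Pol II S2P 2 and 9. All 6 peaks within 5 kb came from siMyolinc lists: the pair of promoter peaks and 4 in the first 3 kb of the gene, 1 each of TDP-43 (8 tags, 951 bp), MyoD (8 tags, 430 bp), Myogenin (84 tags, 2749 bp) and Pol II S2P (9 tags, 2156 bp). No control list had a peak in this interval. The siMyolinc lists held 271022 peaks in all and the control lists 246036. How many of all genes had peaks within 5 kb in siMyolinc lists alone was not counted, so this cannot be called particular to Mef2d. Myogenin siMyolinc had 3 peaks in the gene body and its surroundings, 5.58 times the mean density of all genes (1.15 to 16.3).

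Tcf3 encodes the E-proteins E12 and E47, dimer partners of MyoD. By the nearest-gene rule it had 23 peaks: 6, 0 and 0 in the TDP-43 controls, 1 in TDP-43 siMyolinc, 0 and 5 in MyoD control and siMyolinc, 3 and 3 in Myogenin, and 2 and 3 in Pol II S2P. Its 24.4 kb body lies on chromosome 10 beside Uqcr11, a gene of the respiratory chain. Of 32 peaks in the body and 10 kb on each side, the annotation gave 14 to Tcf3, 16 to Uqcr11 and 2 to Mbd3, so nearest-gene counts miss much of what lay in the gene. The same limit holds for Mef2c, Mef2d, Tcf4 and Tcf12, where 11 of 25, 9 of 24, 21 of 94 and 12 of 32 such peaks were given to a neighbour.

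Counted by place, Tcf3 held TDP-43 peaks in each control and none after knockdown. TDP-43 control replicates 1, 2 and 3 had 7, 2 and 1 peaks in that interval and TDP-43 siMyolinc had 0. The lists held 29703, 10571 and 8162 peaks in control and 24964 in siMyolinc. They also differed in make-up: exons held 18.8%, 24.1% and 25.6% of all peaks in the controls and 6.93% in TDP-43 siMyolinc. The part of list length, depth and make-up was not tested. Per 10000 peaks of the list the Tcf3 counts are 2.36, 1.89 and 1.23 against 0. The density was 8.32 times the pooled density of all protein-coding genes in replicate 1 (3.35 to 17.1). It was 6.22 times in replicate 2 (0.753 to 22.5) and 3.95 times in replicate 3 (0.100 to 22.0). Tcf3 was not set against genes of like length or exon content, so these values do not show it to be unusual among such genes. The groups did not overlap, and the exact two-sided permutation test gave p = 0.25, the smallest that 3 libraries against 1 allow. How many of all protein-coding genes separate in this way was not counted, so the separation cannot be called particular to these genes. The counting interval of the siMyolinc to control ratio ran from 0 to 0.866, and to 1.82 without replicate 1, which held 7 of the 10 peaks. A count of 0 still allows 3 peaks, or 1.20 per 10000. By place, the exact permutation test also gave p = 0.25 for Mef2d, Tcf4 and Id3, Mef2d and Tcf4 with the higher value in siMyolinc. Id3 had 1 peak around the gene in each of the 3 TDP-43 controls and 0 in TDP-43 siMyolinc, or 0.337, 0.946 and 1.23 per 10000 against 0.

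The TDP-43 peaks in Tcf3 were not at 1 site. Of the 10, 9 lay in exons or introns of Tcf3, with 5 to 13 tags, and none overlapped a peak of another control replicate. The strongest, of 13 tags, lay in a Tcf3 exon at chr10:80419426-80419674. Other antibodies also had peaks in the gene: MyoD siMyolinc had 6 in exons or introns of Tcf3 with 11 to 49 tags, Myogenin control 3 and Pol II S2P siMyolinc 3. In the body with its surroundings MyoD siMyolinc had 8 peaks, 3.29 times the mean density (1.42 to 6.49). This reading of Tcf3 by exons and introns was chosen after its values were seen.

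Upstream of Tcf3 lay 1 of the 2 positions found with the same antibody before and after knockdown. At chr10:80438040-80438325, 4511 bp upstream of the start, Pol II S2P had 6 tags in control and 14 in siMyolinc, and TDP-43 control replicate 1 had 5. A 275-tag Myogenin siMyolinc peak lay near it (chr10:80439278-80439352, 480th of 20453) without overlap.

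**Figure D3:**
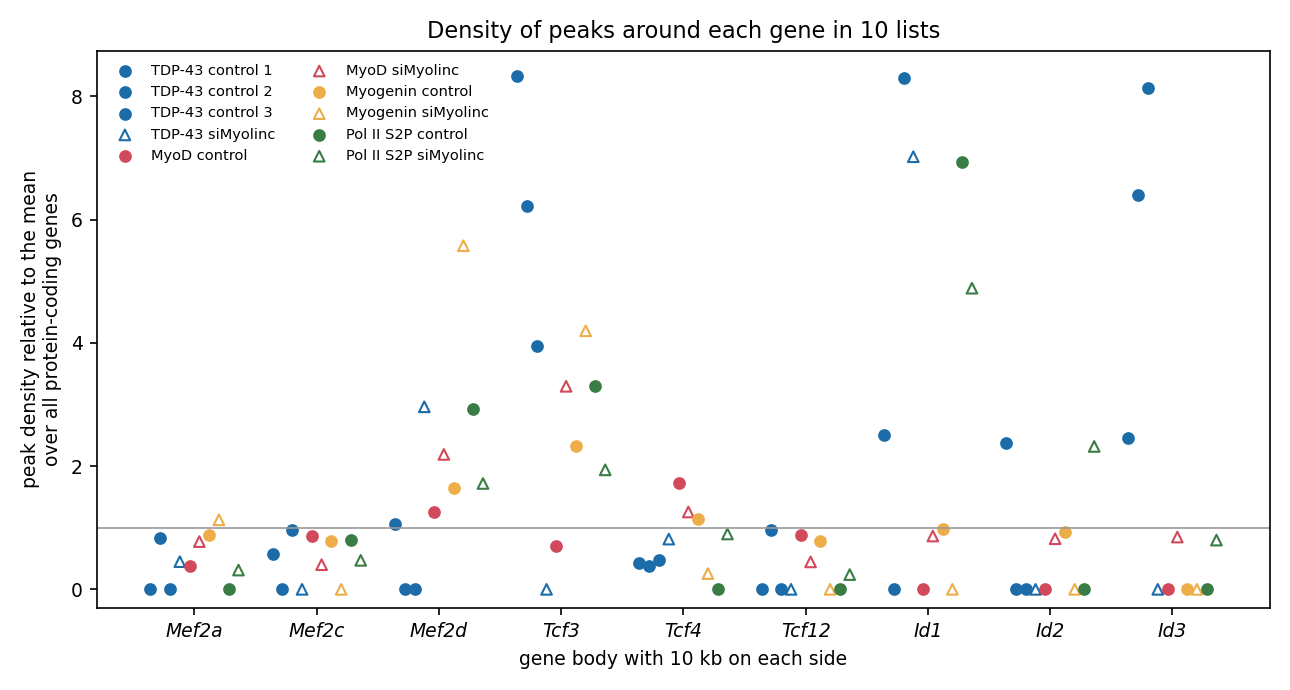
Density of peaks in each gene body with 10 kb on each side, in each of the 10 lists, divided by the mean over all 21900 protein-coding genes. That mean is pooled, as summed peaks over summed length. Filled circles are control lists and open triangles siMyolinc lists, and the line marks 1. The Tcf3 values of the 3 TDP-43 controls are 8.32, 6.22 and 3.95 and that of TDP-43 siMyolinc is 0; single peaks give the high values of Id1 and Id3 in TDP-43 control replicates.

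Tcf12, which encodes the E-protein HEB, a MyoD partner during differentiation, was sparse for its 268 kb in some lists. It had 31 peaks: 0, 2 and 0 in the TDP-43 controls, 0 in TDP-43 siMyolinc, 6 and 6 in MyoD control and siMyolinc, 10 and 0 in Myogenin, and 0 and 7 in Pol II S2P. In the body with its surroundings TDP-43 control replicate 1 and TDP-43 siMyolinc had 0 peaks, with upper limits of 0.678 and 0.952 times the mean density of all genes. MyoD siMyolinc had 7, 0.445 times the mean (0.179 to 0.918), and Pol II S2P siMyolinc 4, 0.240 times (0.0653 to 0.614). In the remaining lists the interval included 1, as in MyoD control at 0.875 (0.378 to 1.73) and Myogenin control at 0.792 (0.395 to 1.42). No Tcf12 position was found in more than 1 list. Its best-placed peak, of 52 tags in MyoD siMyolinc, lay in an intron and on an L1M4 repeat.

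Tcf4, the largest of the 9 genes at 345 kb and the E-protein E2-2, held its peaks inside its own introns. The 99 peaks were 4, 1 and 1 in the TDP-43 controls, 4 in TDP-43 siMyolinc, 19 and 23 in MyoD control and siMyolinc, 25 and 3 in Myogenin, and 0 and 19 in Pol II S2P. Introns of Tcf4 took 71 of them, among them 15 and 19 in MyoD control and siMyolinc, 16 and 1 in Myogenin, and 0 and 12 in Pol II S2P. MyoD control had 20 peaks in the body with its surroundings, 1.73 times the mean density (1.05 to 2.67), and MyoD siMyolinc 25, 1.26 times (0.812 to 1.85). The third promoter peak of Pol II S2P siMyolinc was at Tcf4, 41 bp downstream of a start, with 8 tags (3.45 to 15.8). A TDP-43 position 138908 bp upstream, on a repeat, was the other one found with the same antibody in both conditions, with 7 tags in control replicate 1 and 6 in siMyolinc.

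Across all 90 combinations of gene and list, the interval of the density ratio lay above 1 in 5 and below 1 in 5, all of them given here: Tcf3 in TDP-43 control replicate 1 and MyoD siMyolinc, Tcf4 in MyoD control, Mef2d in Myogenin siMyolinc and Id1 in Pol II S2P siMyolinc above, and Mef2a once and Tcf12 4 times below. These intervals cover counting error only.

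The Id genes are short, and most of their peaks were intergenic: 19 at Id1, 12 at Id2 and 22 at Id3. Id1, whose protein blocks myogenic differentiation, had 22 peaks: 3, 0 and 2 in the TDP-43 controls, 2 in TDP-43 siMyolinc, 0 and 4 in MyoD control and siMyolinc, 1 and 2 in Myogenin, and 1 and 7 in Pol II S2P. Pol II S2P siMyolinc had 6 peaks in the body with its surroundings, 4.89 times the mean density (1.79 to 10.6). Of these, 3 lay just past the end of the gene, with 13, 18 and 15 tags at 1269, 1707 and 2538 bp from the start. Pol II S2P control had 1 peak of Id1, of 6 tags, upstream of it. A TDP-43 siMyolinc peak of 7 tags lay in the Id1 exon, 475 bp from the start; the nearest TDP-43 control peak, also of 7 tags, lay 1225 bp upstream in replicate 1.

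Upstream of Id1 were 4 positions found in more than 1 list, 2 of them in 3 lists. At chr2:152725385-152725633, 10714 bp upstream, TDP-43 control replicates 1 and 3 had 9 and 7 tags and Myogenin siMyolinc 182. At chr2:152729673-152729914, 6376 bp upstream, TDP-43 control replicate 3 and Pol II S2P control had 6 tags each and MyoD siMyolinc 38. At chr2:152724074-152724339 TDP-43 control replicate 1 had 11 tags and Myogenin siMyolinc 124, and at chr2:152718322-152718538 TDP-43 siMyolinc had 8 and MyoD siMyolinc 40. Each of the 4 thus held a TDP-43 peak and a MyoD or Myogenin siMyolinc peak. At all but chr2:152718322-152718538 the TDP-43 peaks came from control lists, so the overlap is between conditions. How often such pairs occur over all positions was not counted.

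Id2, an Id protein that is also a cell cycle regulator, had 19 peaks: 3, 0 and 0 in the TDP-43 controls, 0 in TDP-43 siMyolinc, 2 and 6 in MyoD control and siMyolinc, 2 and 1 in Myogenin, and 0 and 5 in Pol II S2P. The TDP-43 peaks came from 1 replicate only. The strongest, of 17 tags (939th of 29703), lay in an exon of Kidins220 57610 bp downstream of the Id2 start, where Myogenin siMyolinc had a peak of 197 tags (chr12:25038358-25038606). Another, of 5 tags, lay 2475 bp upstream of Id2 and met a 6-tag MyoD siMyolinc peak that is annotated as a TG repeat. MyoD control had no Id2 peak outside the Kidins220 gene.

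Id3, like Id1 an inhibitor expressed in proliferating myoblasts, had 22 peaks, every one intergenic: 2, 1 and 1 in the TDP-43 controls, 2 in TDP-43 siMyolinc, 3 and 5 in MyoD control and siMyolinc, 2 and 0 in Myogenin, and 0 and 6 in Pol II S2P. It was the 1 gene besides Tcf4 with a TDP-43 peak in every TDP-43 list. Replicates 1 and 3 shared a site 10903 bp downstream (chr4:136154601-136154849) with 11 and 5 tags, and replicate 2 had its peak 4649 bp downstream with 6. The second peak of replicate 1, of 9 tags, lay 39588 bp upstream. Both TDP-43 siMyolinc peaks lay upstream, at 23595 and 38543 bp, and each met a MyoD siMyolinc peak (8 against 15 tags, and 10 against 17). The best-placed peak of all 388 was at Id3, a Pol II S2P siMyolinc peak of 33 tags on a B1 repeat 39595 bp upstream, 249th of 116064.

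Relative to list length, the counting interval of the siMyolinc to control ratio included 1 for each antibody. For all 9 genes the ratio of peaks per 10000 was 0.891 for TDP-43 (95% interval 0.471 to 1.62), against a control mean of 7.54 ± 2.58 (SD, n = 3). It was 1.22 for MyoD (0.852 to 1.76), 0.989 for Myogenin (0.542 to 1.69) and 1.25 for Pol II S2P (0.548 to 3.50). MyoD, Myogenin and Pol II S2P had 1 library per condition, so these differences have no replicate check. The widths of the intervals do not show that the rates were equal.

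Gene by gene, 0 of 36 intervals of this ratio excluded 1. For TDP-43 the exact two-sided permutation test over the 4 libraries gave p = 0.5 for Tcf4, the lowest of 9 tests, where the smallest possible is 0.25. Tcf4 had 1.17 ± 0.205 peaks per 10000 in control (SD, n = 3) and 1.60 in siMyolinc. For MyoD the ratio was 4.59 for both Mef2a and Mef2d (0.590 to 207), each with 1 peak in control and 7 in siMyolinc. Counted by place, Mef2a had 2 and 7 MyoD peaks, a ratio of 2.30 (0.437 to 22.7). Mef2d had 2 and 6 by place, a ratio of 1.97 (0.352 to 19.9). The MyoD ratio was 0.794 for Tcf4 (0.414 to 1.54). For Myogenin it was 0.686 for Mef2c (0.211 to 1.73), 0.675 for Tcf4 (0.130 to 2.21) and 5.62 for Tcf3 (0.753 to 42.0), with 3 Tcf3 peaks in each list. For Pol II S2P it was 0.138 for Tcf3 (0.0159 to 1.66), and 5 of the 9 genes had no control peak and so no ratio. By place Tcf3 had 1 and 5 Pol II S2P peaks, a ratio of 0.462 (0.0517 to 21.8). Its Myogenin peaks by place were 5 and 2, a ratio of 2.25 (0.214 to 13.7).

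**Figure D4:**
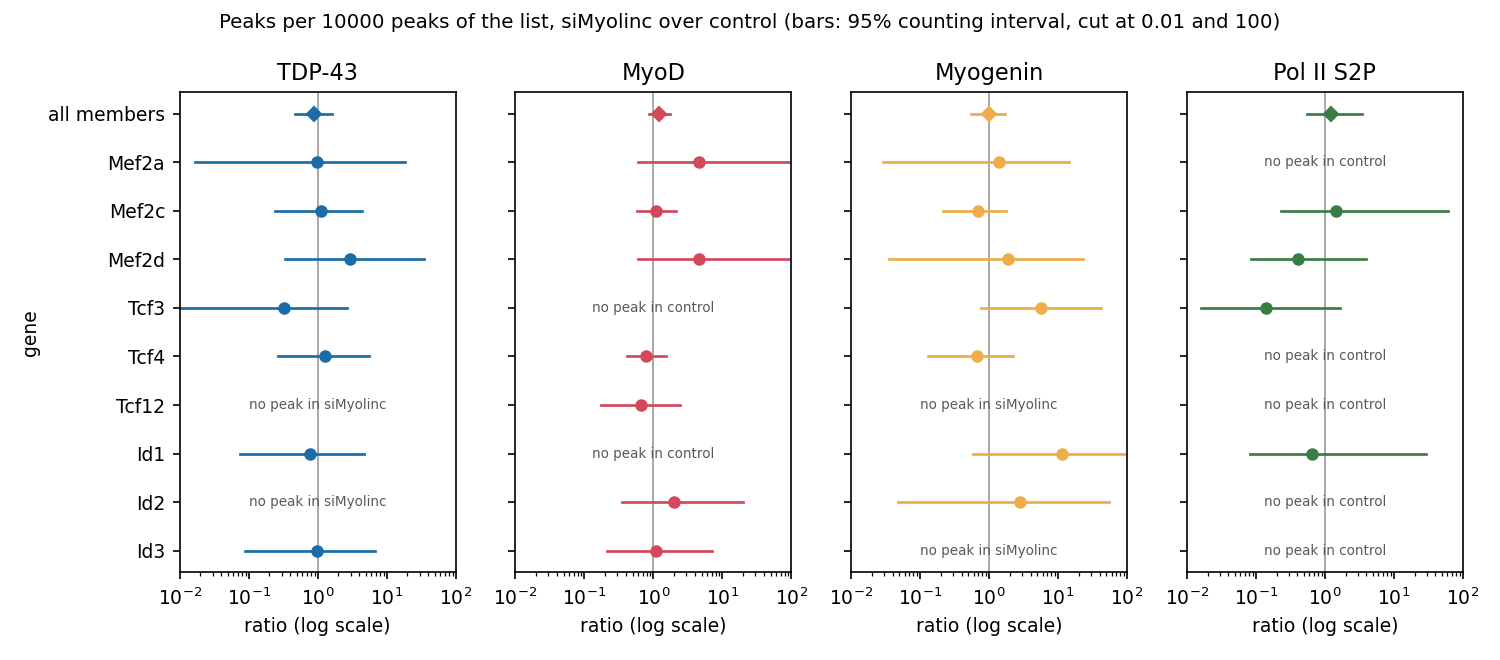
Ratio of peaks per 10000 peaks of the list, siMyolinc over control, for the 9 genes together (diamond) and each alone (circles), by antibody, on a log scale. Bars are 95% counting intervals, the TDP-43 controls are pooled, and every bar crosses 1.

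Positions rarely returned after knockdown, both at these genes and over whole lists. Median widths were 75 bp in the MyoD and Myogenin siMyolinc lists, against 231 and 219 bp in their controls. With 500 bp added around each peak, the returning peaks of these genes rose from 2 to 15. MyoD, Myogenin and Pol II S2P had only 1 control library each, so how often positions return without knockdown is unknown for them. With overlap counted at 1 bp or more, 0 of 49 MyoD control peaks of these genes met a MyoD siMyolinc peak (0 to 7.27%, Wilson), where 1.78% of all MyoD control peaks did. For Myogenin it was 0 of 91 (0 to 4.05%) against 0.355% of all. For Pol II S2P it was 1 of 6, at Tcf3, against 10.5% of all. For TDP-43 control replicates 1, 2 and 3 it was 1 of 24, 0 of 5 and 0 of 8, against 5.88%, 7.08% and 7.36% of all. Even between TDP-43 controls, replicate 2 met neither of the others at these genes, whereas replicates 1 and 3 shared 3 sites, at Id1, Id3 and Mef2c. Of all TDP-43 control replicate 2 peaks, 37.6% met replicate 1, a share inside the Wilson interval for 0 of 5 (0 to 43.4%).

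Most positions found in more than 1 list joined different antibodies. The 388 peaks fell on 354 positions, of which 30 (8.47%) were in 2 or more lists, 26 in 2 and 4 in 3. Over all peaks of the 10 lists, 7.09% of 471958 positions were in 2 or more lists. TDP-43, which supplied 4 of the 10 lists, took part in 23 of the 30, or 76.7%, against 60.0% of the recurrent positions over all peaks. No test of these differences was made. Both conditions were present in 14, control lists alone in 7 and siMyolinc lists alone in 9. By gene there were 6 at Tcf4, 5 at Id3, 4 each at Tcf3 and Id1, 3 each at Mef2c, Mef2d and Id2, 2 at Mef2a and none at Tcf12.

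In 2 lists, Myogenin siMyolinc and MyoD siMyolinc, the Wilson interval of the share met by any other list lay above the share of the whole list. Of the 16 Myogenin siMyolinc peaks at these genes, 6 met a peak of another list, 37.5% (18.5 to 61.4), against 13.2% of all its peaks. TDP-43 control replicate 1 met 4 of them, with an interval of 10.2 to 49.5% against 4.12% of all, 2 at Id1 and 1 each at Id2 and Tcf3. TDP-43 siMyolinc had 4 of 17 peaks met by MyoD siMyolinc, 23.5% (9.56 to 47.3) against 3.69%, at Id1, Mef2d and Id3. These 2 pairs were picked out of 90 ordered pairs of lists after their values were seen, and no test was made. MyoD siMyolinc had 14 of 91 met by any list, 15.4% (9.39 to 24.2) against 9.29%, while MyoD control and Myogenin control had 2 of 49 and 3 of 91, below the 9.14% and 7.93% of their lists with intervals that reach them.

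**Figure D5:**
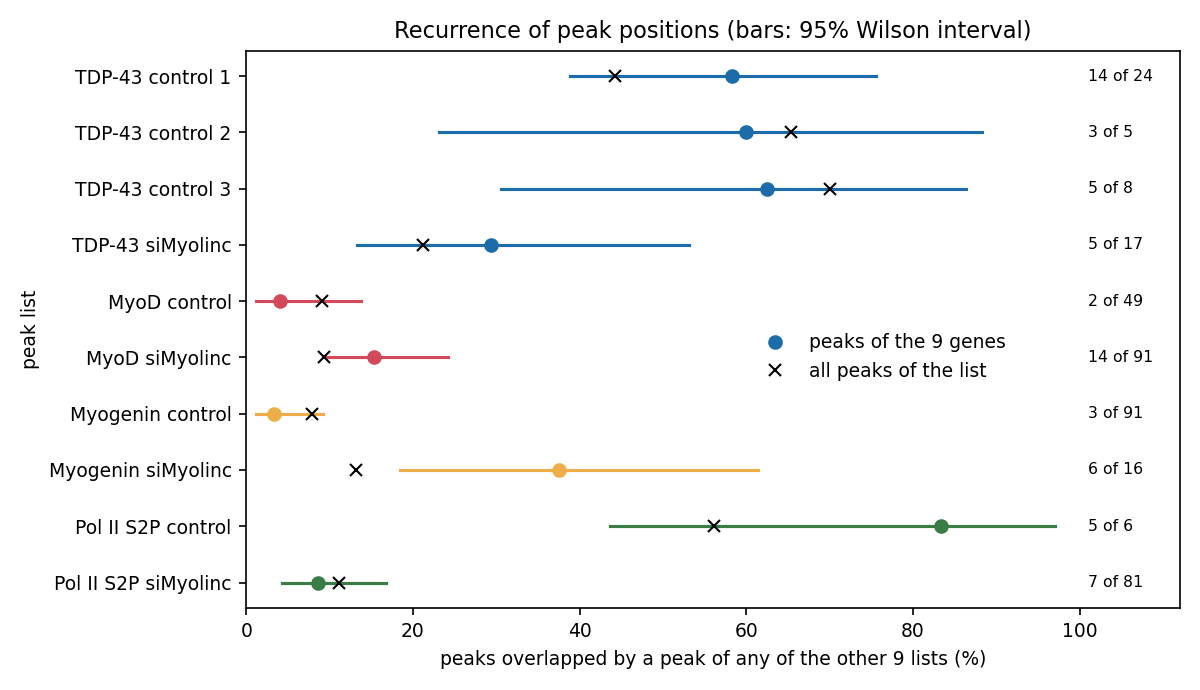
Share of the peaks of the 9 genes in each list that overlapped a peak of any of the other 9 lists (circles, with 95% Wilson intervals and counts at the right), beside the share over all peaks of the list (crosses). Myogenin siMyolinc, with 6 of 16, and MyoD siMyolinc, with 14 of 91, have intervals above the cross.

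Other genes of the pathway were counted in the same way. Promoter peaks lay at 4, 1 and 2 of 38 further MyoD partners and co-regulators in TDP-43 control replicates 1, 2 and 3. In TDP-43 siMyolinc they lay at 3. These are 10.5%, 2.63%, 5.26% and 7.89% of the 38, beside 4.83%, 2.00%, 1.58% and 2.34% of all protein-coding genes. MyoD control and siMyolinc marked 0 and 9 of their promoters (3.79% and 10.6% of all genes), Myogenin 5 and 1 (6.16% and 2.31%), and Pol II S2P 1 and 5 (1.45% and 8.39%). Of the 38 genes, 17 had a promoter peak in some list and 7 in 2 or more: Myod1, Mdfi, Hdac7, Hes1, Myocd, Twist1 and Twist2. The same shares over all protein-coding genes were not counted. Myod1, the gene of MyoD itself, had promoter peaks in control lists alone, all overlapping just upstream of the start. They had 8 and 6 tags in TDP-43 control replicates 1 and 2, 9 in Myogenin control and 6 in Pol II S2P control. TDP-43 control replicate 3 and MyoD control had none there. How many of all genes had promoter peaks in control lists alone was not counted, so this cannot be called particular to Myod1. Mdfi, which encodes an inhibitor that holds myogenic factors in the cytoplasm, had promoter peaks in TDP-43 control replicates 1 and 3 with 7 and 5 tags and in TDP-43 siMyolinc with 9. It also had 3 in MyoD siMyolinc and 1 in Pol II S2P siMyolinc. Hdac7, a histone deacetylase that binds Mef2 proteins, had 20 tags in TDP-43 control replicate 1, 17 in Myogenin control and 36 in MyoD siMyolinc at 1 place. The Notch target Hes1 had 18 tags in MyoD siMyolinc and 15 in Pol II S2P siMyolinc, and Myocd, a cofactor of serum response factor, 26 in MyoD siMyolinc and 122 in Myogenin siMyolinc. Twist1, an inhibitor of MyoD, had 7 tags in TDP-43 siMyolinc, 38 in MyoD siMyolinc and 8 in Pol II S2P siMyolinc. Twist2 had 5 in TDP-43 control replicate 3 and 8 in TDP-43 siMyolinc.

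bHLH factors best known from other tissues formed another list. Of 25 such genes, 4, 2 and 3 had a promoter peak in TDP-43 control replicates 1, 2 and 3 and 0 in TDP-43 siMyolinc. The share of all protein-coding genes in these lists was 4.83%, 2.00%, 1.58% and 2.34%. MyoD marked 0 and 2 in control and siMyolinc (3.79% and 10.6% of all genes), Myogenin 3 and 4 (6.16% and 2.31%), and Pol II S2P 0 and 5 (1.45% and 8.39%). No test was made between the 3 lists of genes, and a list of 9 genes leaves little room for a promoter peak at shares of a few percent. A promoter peak in some list was found for 14 of the 25, and in 2 or more for 5: Hand1, Hand2, Olig2, Ptf1a and Tal1. Ptf1a, a pancreatic factor, had 8 and 6 tags in TDP-43 control replicates 2 and 3 and 19, 20 and 15 in MyoD, Myogenin and Pol II S2P siMyolinc. Hand2, a heart and limb factor, had 8 and 6 in TDP-43 control replicates 1 and 3 and a pair of peaks in Myogenin siMyolinc with 147 and 77. Olig2, an oligodendrocyte factor, had 8 tags in TDP-43 control replicate 1 and 46 in Pol II S2P siMyolinc. Tal1, a blood factor, had 12 in TDP-43 control replicate 1 and 28 in Myogenin siMyolinc, and Hand1 6 each in TDP-43 control replicate 2 and Myogenin control. Of the 9 Mef2, E-protein and Id genes, 5 had a promoter peak in some list and 1, Mef2d, in 2 or more. The share of all protein-coding genes with a promoter peak in some list, or in 2 or more, was not counted. For none of the 3 lists of genes can these pooled counts therefore be called high or low.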

How the data were processed

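Chromatin of C2C12 cells was precipitated with 4 antibodies. Each of 10 libraries came with a peak list that the authors called against IgG and annotated with HOMER on mm10, per the file headers and the submitters' processing notes. For the aligner, the HOMER version and the thresholds, the sources used here give nothing. Each deposited peak has, per the file headers, a position, a peak score, a class, a nearest gene and a distance to its transcription start. The score was the authors' value and was used within a list. Within each list scores were whole multiples of a step, with a rounding tolerance of 0.055 and the highest 1% set aside; score divided by step was read as tags. Absolute depth is unknown. The input and IgG samples were not analysed here.

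Peaks were counted per gene and library and divided by list length. Exact Poisson intervals were used for counts, Wilson intervals for shares and exact conditional binomial intervals for ratios, all at 95%. They cover only counting error and leave out variation between libraries. Intervals of tags also take each tag as a separate molecule, which PCR duplicates are not. Overlap was 1 bp or more. TDP-43 controls (n = 3) were set against 1 siMyolinc library by an exact permutation test; other antibodies had no test. Density used the gene body with 10 kb on each side over 21900 protein-coding genes of RefSeq GRCm38.p6, the assembly of mm10. The mean density of all genes was their summed peaks divided by their summed length. Steps were checked on simulated data (Python 3.11.15, numpy 2.4.6, pandas 2.3.3, scipy 1.17.1, matplotlib 3.10.9).

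All 9 genes are named. Single peaks are named where they were in the promoter class, best in their list or found in another list, and genes of the other lists where 2 or more lists had a promoter peak; peaks within 5 kb of a start or in Tcf3 were added after their values were seen. The members and lists were chosen with earlier results of these data known. Alternatives covered list scaling, score, promoter distance, repeats, overlap and leaving out replicates.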

Additional observations from a re-analysis of the deposited data

How the results depend on the processing

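Of 41 values recomputed under 187 alternatives, 143 stayed within the counting interval, the spread or 1.5 times of the value reported, and 44 did not. The intervals are wide, and no ratio was called different from 1. The ratio for all 9 genes crossed 1 under 8 of 23 alternatives. It was 1.02 (TDP-43), 0.953 (MyoD) and 0.875 (Pol II S2P) when peaks under the median score were dropped, 1.08 (Myogenin) and 0.959 (Pol II S2P) without repeats, 0.800 (Pol II S2P) at equal length and 1.38 (TDP-43) with raw numbers. Ratios of single genes crossed 1 under 34 of 127. Without scaling to list length the siMyolinc to control ratio was 1.86 (MyoD), 0.176 (Myogenin) and 13.5 (Pol II S2P), which by construction carries the lengths of the lists. With lists of equal length (8162 peaks) it was 2.00 for Myogenin. Leaving out a TDP-43 control gave 0.806 to 0.981. The number of gene and antibody pairs whose interval excluded 1, of 36, was 0 as reported, 2 when peaks under the median score were dropped (Tcf3 with Myogenin and with Pol II S2P), 1 in the gene body with 10 kb around it (Tcf3 with TDP-43) and 8 with raw numbers.

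The difference in promoter genes, siMyolinc minus control, moved for each antibody. For TDP-43 it was 0, and 2 within 1000 bp and 0.333 within 5000 bp. For MyoD it was 2, and 1 at the median score, 0 at equal length and 5 within 5000 bp. For Myogenin it was -1, and 0 at the median score and at equal length. For Pol II S2P it was 3, and 0 at the median score, 0 at equal length and 5 within 5000 bp. The cause was not tested.

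Sites shared by TDP-43 controls numbered 3, and 0 to 3 with a replicate left out (0 without replicate 1 or 3). Peaks found again after knockdown numbered 2, and 15 with 500 bp added around each peak and 1 without repeats. Positions in 2 or more lists numbered 30. Alternatives chosen after seeing the data gave 63 with 500 bp added and 14 without the 2 lists of narrow peaks. No paired analysis was possible because the groups compared share fewer than 2 replicate numbers. Few tags per peak and 1 library per condition limit what any single peak shows.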
